A study of Mus musculus with 12 samples.

Results

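Bile acid synthesis enzymes were examined in the livers of 12 mice through 10 genes chosen by symbol: Cyp7a1, Cyp8b1, Cyp27a1, Cyp7b1, Cyp39a1, Cyp46a1, Hsd3b7, Akr1d1, Amacr and Baat. These are 10 of the 57180 genes in the tables, and all 10 passed the filter on low counts that left 19350 genes. RNA was taken from 3 mice of each sex and genotype, giving 4 groups that are named here by genotype and sex (Het and KO, females and males). Every mouse lacked Csa (listed in the annotation as Ercc8, a gene of transcription-coupled DNA repair) and had been injected into the brain ventricles as a newborn with AAV9-CSA, a vector carrying human CSA under the ubiquitous CBA promoter. The Het mice were Csa-/- Xpa+/- littermates of matched age. The KO mice were, in the study's account, the CX mice (Csa-/- Xpa-/-) taken at the humane endpoint, whereas the series text and the RNA-seq methods write Xpa+/+ for them, so KO and Het are used here as group names from the labels. Genotype thus goes with the state of the animals at the endpoint, and these cannot be told apart. Exact ages of the 12 mice are not given in the sources used here.

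Xpa RNA was looked at first as a check of the labels. Its normalized level was 3.10 to 6.34 CPM (counts per 1e+06 of the TMM-scaled library) in the 6 Het livers and 0.992 to 1.83 CPM in the 6 KO livers, without overlap. This is the order of Xpa-/- below Xpa+/-, and not that of Xpa+/+ above Xpa+/-. Counts per gene do not show the allele itself. Reads on Ercc8 were present in every liver, at 5.10 to 8.68 CPM in Het and 14.8 to 33.997 CPM in KO livers, so this gene did not mark the Csa genotype in these counts. Between 30044812 and 43634073 estimated counts per liver were assigned to genes. All 6 hepatocyte markers that were tested were expressed in every liver, with a summed level of 61686 to 87627 CPM in Het and 80839 to 139634 CPM in KO livers. Clock gene expression varied between livers: an index of 4 clock genes (Bmal1, Npas2, Clock, Cry1) minus 5 others that peak at another time of day (Dbp, Per2, Per3, Nr1d1, Ciart), in mean log2 CPM, was 2.52 in Het_F_115, between -4.29 and -3.58 in the other Het livers, -3.72 in KO_M_118 and between -1.34 and -0.83 in the other KO livers.

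The liver turns cholesterol into bile acids along a classic and an alternative pathway. In the classic pathway Cyp7a1 places the first hydroxyl group on cholesterol, and in the alternative pathway the sterol side chain is oxidized first, by Cyp27a1 or other sterol hydroxylases, before Cyp7b1 or Cyp39a1 hydroxylates the ring of the resulting oxysterol. Both routes then share Hsd3b7 and Akr1d1, which remodel the steroid ring. Cyp8b1 directs the product towards cholic acid, Amacr prepares the side chain for shortening and Baat joins the finished acid to taurine or glycine. Cyp7a1 is known for a daily rhythm and for repression by bile acids, and in mouse liver Cyp7b1 is known as a male-biased and Cyp39a1 as a female-biased gene.

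The promoters of enzymes that set the cholic acid branch (Cyp8b1) or act on oxysterols (Cyp7b1 and Cyp39a1) are shown as a selection from those searched. In the values that follow, Cyp7b1 and Cyp39a1 passed the test of KO against Het over both sexes and Cyp8b1 did not. Each sequence is the 250 bases of GRCm39 before the start of the canonical GENCODE M39 transcript, written 5′ to 3′ on the gene's strand, with motif matches in capitals. The regions are chr9:121745372-121745621 on the minus strand for Cyp8b1, chr3:18297741-18297990 on the minus strand for Cyp7b1 and chr17:43978031-43978280 on the plus strand for Cyp39a1.
Cyp8b1: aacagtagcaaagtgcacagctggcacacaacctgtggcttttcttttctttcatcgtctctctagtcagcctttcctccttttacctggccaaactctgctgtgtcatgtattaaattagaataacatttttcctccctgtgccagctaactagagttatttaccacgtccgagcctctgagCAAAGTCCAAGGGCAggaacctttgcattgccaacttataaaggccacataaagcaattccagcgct
Cyp7b1: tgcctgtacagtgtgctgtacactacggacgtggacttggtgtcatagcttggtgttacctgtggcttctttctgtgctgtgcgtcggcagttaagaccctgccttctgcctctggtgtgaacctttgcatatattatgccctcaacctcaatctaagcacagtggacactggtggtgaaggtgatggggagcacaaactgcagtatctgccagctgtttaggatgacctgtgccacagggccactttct
Cyp39a1: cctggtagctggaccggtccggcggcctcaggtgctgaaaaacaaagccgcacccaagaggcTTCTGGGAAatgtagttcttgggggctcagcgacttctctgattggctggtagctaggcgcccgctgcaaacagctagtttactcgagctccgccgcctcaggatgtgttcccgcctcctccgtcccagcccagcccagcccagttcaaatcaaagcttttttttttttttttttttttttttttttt
All 5 motifs were searched on both strands in the promoters of 9 of the enzymes, and a match is a description of letters and not a binding site. The STAT5 motif TTCNNNGAA was found in Cyp39a1 (188 bases before the start), against 6.75% of 14323 promoters of tested protein-coding genes. The NR5A2 motif CAAGGNCA was found in Cyp8b1 and Amacr (4.89% of promoters), and the HNF4A motif CAAAGTCCA in Cyp8b1 and Baat (0.419%). In Cyp8b1 the HNF4A and NR5A2 matches overlap. No match to ATCGAT, the ONECUT and CUX motif (0.789%), or to TTATGTAA, the D-box of clock output factors (0.614%), was present in any of the 9 windows.

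On a per-length scale (TPM), which allows genes to be compared within a group, Cyp27a1 and Hsd3b7 had the highest group means in all 4 groups and Cyp46a1 the lowest. In Het females their TPM levels were 207 ± 14.6 and 206 ± 21.0 (SD, n = 3), within the spread of each other, and in KO females 196 ± 19.1 and 75.7 ± 45.3. The mean of Hsd3b7 in KO females rested on KO_F_123 (128 TPM, against 49.8 in KO_F_108 and 49.3 in KO_F_112) and did not differ beyond the spread from that of Baat (56.0 ± 11.0 TPM) or Akr1d1 (50.5 ± 13.6 TPM). Cyp7b1 came after Cyp27a1 and Hsd3b7 in Het males, at 103 ± 20.4 TPM, but was followed only by Cyp39a1 and Cyp46a1 in Het females, at 17.1 ± 8.35 TPM. Cyp8b1 and Baat, which followed Cyp7b1 in Het males, did not differ beyond their spread (69.7 ± 29.5 and 68.8 ± 5.61 TPM). Cyp39a1 and Cyp46a1 filled the last ranks of Het males at 2.42 ± 0.210 and 2.28 ± 0.302 TPM, within the spread of each other. In KO males, Akr1d1 and Baat came next after Hsd3b7 with 65.8 ± 5.76 and 64.3 ± 9.60 TPM, again within the spread. The 10 genes summed to 642 to 826 TPM in Het females, 610 to 755 in Het males, 434 to 596 in KO females and 566 to 631 in KO males.

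KO livers were compared with Het livers over both sexes in 1 fit of all tested genes (quasi-likelihood F test of edgeR, with p-values adjusted by the Benjamini-Hochberg procedure over 19350 genes). Of the 10 enzymes, 5 passed an adjusted p of 0.05, where 22.4% of all tested genes did. Only Cyp39a1 was higher in KO livers (12.2% of all genes were higher), and Cyp7b1, Cyp46a1, Hsd3b7 and Amacr were lower (10.2% of all genes were lower). The median log2 fold change of the 10 enzymes was -0.23, beside 0.02 over all tested genes. The genotypes had separate ranges for Cyp39a1, Cyp46a1 and Hsd3b7, which is 3 of 10 enzymes against 9.35% of all genes. In whole-liver RNA, fewer cells of a type and less RNA per cell cannot be told apart.

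**Figure D1:**
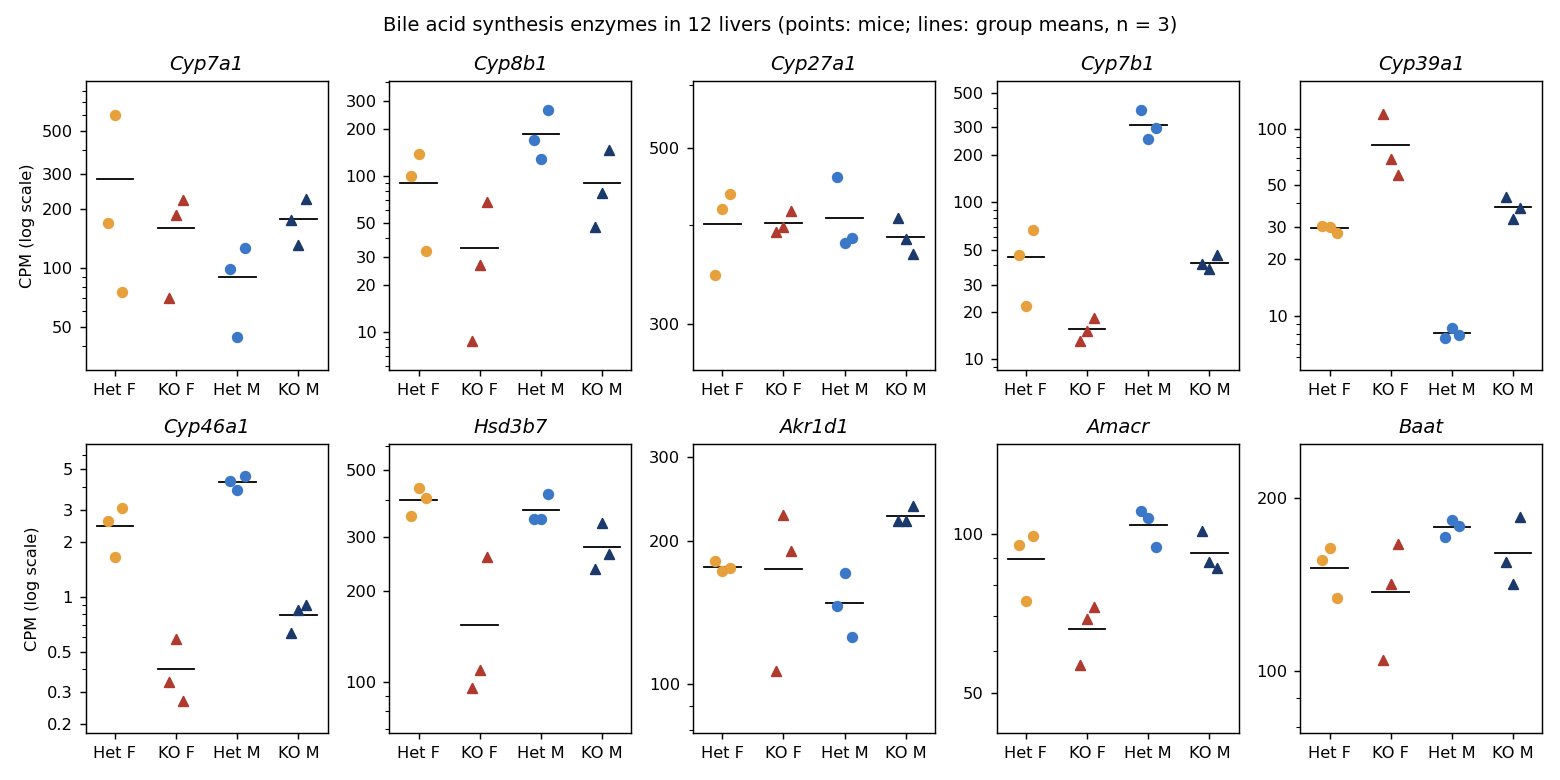
Normalized level (CPM, log axis, a scale of its own in each panel) of the 10 enzymes in each liver. Points are mice, circles Het and triangles KO, and lines are group means of 3 mice. The KO points lie above the Het points of both sexes for Cyp39a1 and below them for Cyp46a1, and 1 Het female has a Cyp7a1 level of 604 CPM.

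Cyp7a1, the rate-limiting enzyme of the classic pathway, lies on chromosome 4 from 6265612 to 6275633 (GRCm39, minus strand, 6 exons). Its level was 169 CPM in Het_F_111, 604 in Het_F_115 and 74.9 in Het_F_126, and 98.4 CPM in Het_M_119, 44.5 in Het_M_125 and 126.02 in Het_M_137. It was 70.2 CPM in KO_F_108, 187 in KO_F_112 and 221 in KO_F_123, and 175 CPM in KO_M_118, 130 in KO_M_122 and 225 in KO_M_136. Levels of the other enzymes are given in this same order of mice within each group. Het_F_115 stood above all other livers and the female groups overlapped, whereas each KO male lay above each Het male. KO against Het gave a log2 fold change of 0.08 (standard error, SE, 0.496, adjusted p = 0.931), with -0.83 ± 0.707 in females (adjusted p = 0.481) and 0.98 ± 0.709 in males (adjusted p = 0.447, log2 fold change ± standard error throughout). Neither sex passed the test, nor did the difference between the sexes (1.80 ± 1.001, adjusted p = 0.605). Without Het_F_115, the liver with the clock index of 2.52, the value in females was 0.37 and that over both sexes 0.67 (adjusted p = 0.240).

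Cyp8b1, the sterol 12α-hydroxylase, lies on chromosome 9 from 121743422 to 121745371 as a gene of 1 exon. On a fold scale it had the widest range of the 10 enzymes within KO livers, with 8.71, 26.6 and 67.9 CPM in KO females and 46.8, 77.2 and 146 CPM in KO males. In Het livers it was at 98.9, 138 and 33.0 CPM in females and 168, 128 and 262 CPM in males. The groups overlapped in both sexes. The log2 fold change was -1.21 (SE 0.520, adjusted p = 0.122), a value that missed the threshold although its unadjusted p was 0.0419. Leaving out KO_F_123, the KO female with the highest level, gave -1.71 (adjusted p = 0.0379). With the clock index as a covariate the values were -1.42 for Cyp8b1 (adjusted p = 0.0973) and -0.05 for Cyp7a1 (adjusted p = 0.945). Apart from Het_F_115 and KO_M_118 the index was higher in KO livers, so this fit does not separate clock and genotype.

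**Figure D2:**
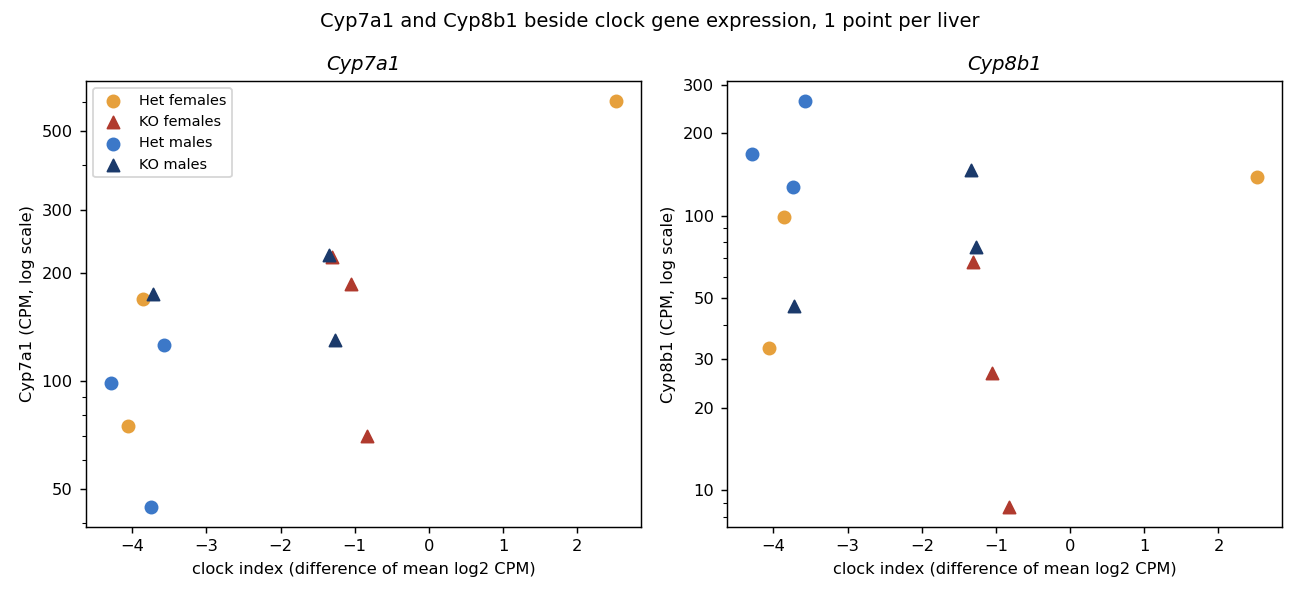
Cyp7a1 (left) and Cyp8b1 (right) in CPM on a log axis against the clock index (difference of mean log2 CPM between the 2 sets of clock genes), 1 point per liver. Het_F_115, at an index of 2.52, has the highest Cyp7a1 level, and most KO livers lie between the other Het livers and Het_F_115 on the index.

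Over the 12 livers, the genes whose log2 CPM followed Cyp7a1 most closely were Tent5c (Pearson's r 0.881), Lgalsl (0.873) and Pag1 (0.870). For Cyp8b1 they were Gm47348 (0.921), Rtn4ip1 (0.915) and Ssr1 (0.912). These are descriptions over livers that also differ in sex, genotype and clock index.

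Cyp27a1, the mitochondrial sterol side chain hydroxylase, lies on chromosome 1 from 74752314 to 74777056 and was the steadiest of the enzymes. Its levels ran from 347 to 460 CPM in Het and from 368 to 417 CPM in KO livers. The KO range lay within the Het range. The log2 fold change was -0.04 (SE 0.0952, adjusted p = 0.819).

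Cyp7b1, which hydroxylates oxysterols of the alternative pathway, lies on chromosome 3 from 18117411 to 18297740 (minus strand). Het females had 46.1, 21.9 and 66.4 CPM and Het males 385, 252 and 299 CPM. KO females had 13.1, 15.2 and 18.2 CPM and KO males 40.3, 37.4 and 46.0 CPM. Within each sex every KO liver lay below every Het liver, but KO males overlapped Het females. Cyp7b1 fell by 2.22 on the log2 scale (SE 0.232, adjusted p = 1.61e-04), to 0.214 of the Het level. The log2 fold change was -1.53 in females (SE 0.322, adjusted p = 0.0165) and -2.92 in males (SE 0.336, adjusted p = 8.43e-04). The call in females was lost without KO_F_108 (adjusted p = 0.0631), without KO_F_112 (adjusted p = 0.0509) and when the females were fitted alone (adjusted p = 0.0778). The difference between the sexes was -1.39 (SE 0.447, adjusted p = 0.434) and did not pass.

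Cyp39a1, the hydroxylase that prefers oxysterols of the kind made by Cyp46a1, lies on chromosome 17 from 43978281 to 44062322. Het females had 30.3, 29.8 and 27.8 CPM and Het males 7.61, 8.62 and 7.90 CPM. KO females had 121, 68.9 and 56.9 CPM and KO males 43.4, 32.8 and 37.8 CPM. Every KO liver lay above every Het liver of either sex, and KO_F_108 was the highest. Cyp39a1 rose by a log2 fold change of 1.86 (SE 0.164, adjusted p = 3.82e-05), to 3.63 times the Het level. The rise was 1.49 ± 0.229 in females (adjusted p = 0.00419) and 2.23 ± 0.236 in males (adjusted p = 4.06e-04), and without KO_F_108 that in females was 1.09.

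**Figure D3:**
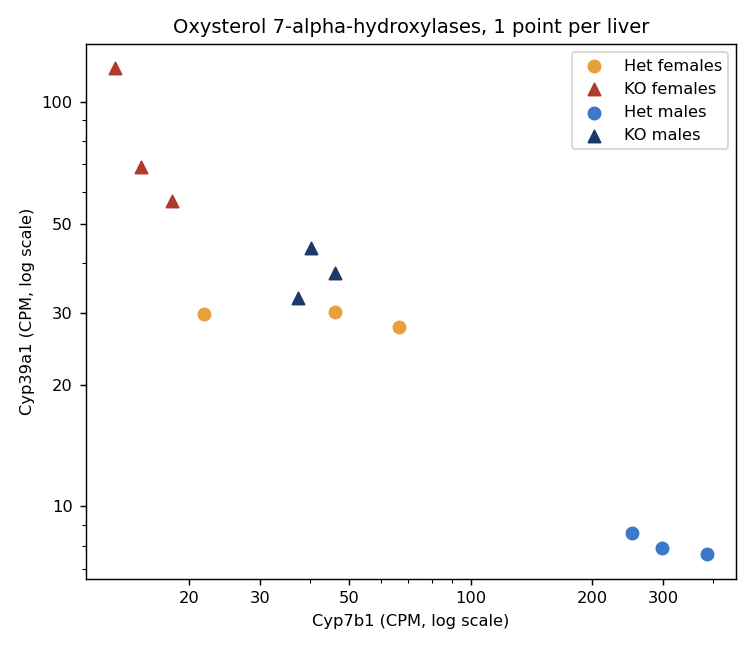
Cyp39a1 against Cyp7b1, both in CPM on log axes, 1 point per liver. Het males lie at the lower right (252 to 385 CPM of Cyp7b1), KO females at the upper left (13.1 to 18.2 CPM), and KO males lie beside the Het females.

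The 2 oxysterol hydroxylases also differed between males and females. In Het livers Cyp7b1 was higher in males by 2.80 (SE 0.335, adjusted p = 0.00189) and Cyp39a1 lower in males by a log2 fold change of -1.86 (SE 0.233, adjusted p = 0.00202), and these were the 2 of 10 enzymes called, where 0.92% of all genes were. Averaged over both genotypes the same 2 enzymes were called, with 2.10 for Cyp7b1 (adjusted p = 0.00146) and -1.49 for Cyp39a1 (adjusted p = 0.00112), against 1.02% of all genes. Among KO livers no enzyme was called (0.0517% of all genes were), 5 had an unadjusted p under 0.05 (12.6% of all genes) and DESeq2 called 2 (1.61% of all genes). The values there were 1.40 for Cyp7b1 (adjusted p = 0.158) and -1.11 for Cyp39a1 (adjusted p = 0.138), with no overlap between the sexes for either gene. The TPM ratio of Cyp7b1 to Cyp39a1 within a liver, which does not depend on library scaling, was 32.6 to 56.2 in Het males, 0.795 to 2.64 in Het females, 1.05 to 1.33 in KO males and 0.119 to 0.349 in KO females. KO males thus lay within the range of Het females on this ratio and KO females below it. The TPM ratio of Cyp7a1 to Cyp7b1 was 0.106 to 0.225 in Het males, 1.96 to 2.695 in KO males, 0.630 to 16.5 in Het females and 3.47 to 7.499 in KO females.

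Cyp46a1, a cholesterol hydroxylase best known from neurons, lies on chromosome 12 from 108300493 to 108328512 and was the weakest of the enzymes, with 10 to 144 counts per liver. Its level was 2.59, 1.66 and 3.07 CPM in Het females and 4.30, 3.84 and 4.61 CPM in Het males. In KO females it was 0.341, 0.588 and 0.268 CPM, and in KO males 0.634, 0.845 and 0.899 CPM. No KO liver reached the lowest Het liver. Cyp46a1 fell by 2.41 on the log2 scale (SE 0.216, adjusted p = 4.40e-05), to 0.188 of the Het level, with -2.47 in females (adjusted p = 0.00173) and -2.35 in males (adjusted p = 0.00109).

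Among the enzymes that remodel the ring, Hsd3b7 (chromosome 7 from 127399597 to 127402989) had 353, 436 and 404 CPM in Het females and 344, 345 and 416 CPM in Het males. In KO females it was at 95.0, 109 and 258 CPM, and in KO males at 235, 335 and 264 CPM. All KO livers lay below all Het livers, with KO_F_123 above the other KO females. Hsd3b7 fell by 0.89 (SE 0.221, adjusted p = 0.0153) over both sexes with -1.37 in females (SE 0.315, adjusted p = 0.0219) and -0.40 in males (SE 0.310, adjusted p = 0.469). The difference between the sexes was 0.96 ± 0.439 (adjusted p = 0.538), and without KO_F_123 it was 1.56 (adjusted p = 0.0273). The call in females was lost without Het_F_115, Het_F_126, KO_F_108 or KO_F_112 (adjusted p from 0.0506 to 0.0666).

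Akr1d1, the steroid reductase that acts after Hsd3b7 (chromosome 6 from 37506822 to 37545751), had 181, 173 and 176 CPM in Het females and 146, 171 and 125.5 CPM in Het males. KO males had 221, 220 and 237 CPM, above every Het male, whereas KO females had 107, 227 and 190 CPM, on both sides of the Het females. The log2 fold change was 0.30 (SE 0.156, adjusted p = 0.192), with -0.02 ± 0.221 in females and 0.61 ± 0.221 in males (adjusted p = 0.118). Over both sexes the value was 0.41 without KO_F_108 (adjusted p = 0.0138) and 0.18 without KO_F_112, which did not pass. In males a call was gained without KO_F_108 (adjusted p = 0.0161) and with the males fitted alone (adjusted p = 0.0324). It was also gained by limma on log2(TPM + 1) (adjusted p = 0.0451) and on log2(TPM + 0.1) (adjusted p = 0.0407).

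Amacr, the racemase that readies the side chain (chromosome 15 from 10981827 to 10996712), had 74.6 to 99.2 CPM in Het females, 94.3 to 110 in Het males, 56.3 to 72.6 in KO females and 86.3 to 101 in KO males. KO females lay below Het females and the males overlapped. Amacr fell by 0.31 over both sexes (SE 0.102, adjusted p = 0.0479), and the call was lost without any 1 of 8 mice (adjusted p from 0.0654 to 0.0909). Baat, the conjugating enzyme (chromosome 4 from 49489289 to 49506563, minus strand), ranged from 134 to 183 CPM in Het and from 105 to 185 CPM in KO livers, with a log2 fold change of -0.14 (SE 0.120, adjusted p = 0.422).

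**Figure D4:**
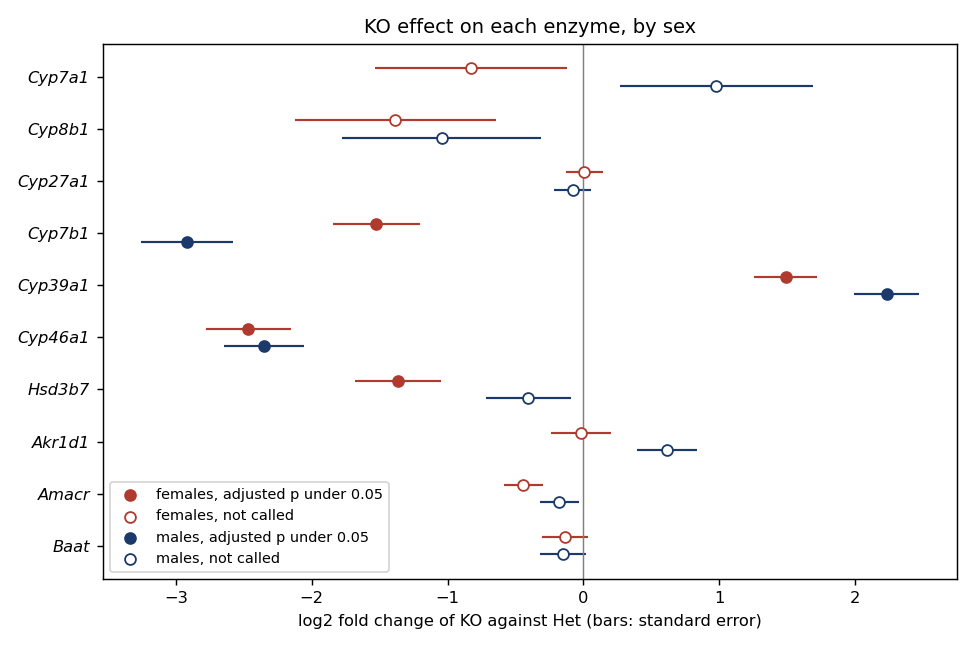
Log2 fold change of KO against Het for each enzyme in females (red) and males (blue), with bars for the standard error and filled points for an adjusted p under 0.05. Cyp7b1, Cyp39a1 and Cyp46a1 are filled in both sexes, Hsd3b7 in females, and Cyp7a1 has fitted values of opposite sign with bars that are wide.

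Within females 4 of the 10 enzymes were called, 1 higher and 3 lower, where 11.0% of all genes were called. Within males 3 were called, 1 higher and 2 lower, against 7.45% of all genes. These shares of all genes depended on single mice: in females the share was 4.38% without KO_F_108, 5.52% without KO_F_112, 5.40% without Het_F_111 or Het_F_126 and 6.55% without Het_F_115. Leaving out Het_M_125 gave 2.79% in males, KO_M_118 gave 3.05%, Het_M_137 gave 3.48%, Het_M_119 gave 3.49% and KO_M_136 gave 4.09%. The livers of a sex did not overlap for 5 enzymes in females (30.4% of all genes) and for 6 in males (32.1% of all genes). No enzyme was called for the difference between the sexes by edgeR (0.0465% of all genes) or by DESeq2 (0.822% of all genes), and 3 had an unadjusted p under 0.05 (Cyp7b1, Cyp39a1 and Hsd3b7), where 9.28% of all genes did.

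Genes that act beside these enzymes were read from lists compiled by hand. Of 8 genes for side chain shortening and conjugation in the peroxisome, 1 rose and 4 fell, with a median log2 fold change of -0.56. Scp2, a sterol carrier and thiolase, fell by 1.14 (SE 0.150, adjusted p = 5.12e-04) from a range of 1517 to 3029 CPM in Het to one of 539 to 1264 CPM in KO livers. Abcd3, a peroxisomal importer of bile acid intermediates, fell by 1.15 (adjusted p = 7.83e-04), and Acox2, the oxidase of branched side chains that acts after Amacr, rose by 0.77 (adjusted p = 0.00195). Of 3 further hydroxylases 2 rose, namely Cyp2a12, which rehydroxylates secondary bile acids (0.76, adjusted p = 0.00150), and Cyp2c70, which makes muricholic acids in mice (0.93, adjusted p = 0.00797).

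Among 21 regulators of the pathway 2 rose and 5 fell, beside 12.2% and 10.2% of all tested genes, and the median was 0.03. Cux2, a transcription factor known as female-biased in mouse liver, rose by 3.50 (SE 0.371, adjusted p = 2.83e-04), with 0.480 to 0.834 CPM in Het males and 20.3 to 46.9 CPM in KO males. In females Cux2 was at 19.3 to 41.7 CPM in Het and 32.2 to 119.1 CPM in KO livers, with overlap. Nr1h4, the bile acid receptor FXR, fell by 1.03 (adjusted p = 0.00127), and Nr1h3, the oxysterol receptor LXRα, by 0.49 (adjusted p = 0.00199). Among the regulators whose motifs had a match in these promoters, Stat5b gave 0.50 (adjusted p = 0.00405), Hnf4a -0.06 (adjusted p = 0.789) and Nr5a2 -0.38 (adjusted p = 0.0521). These values were picked for this comparison after they had been seen. Of 10 bile acid transporters tested, 3 rose and 4 fell, beside the same 12.2% and 10.2% of all tested genes. The basolateral uptake carrier Slco1b2 fell by 1.08 (adjusted p = 3.85e-04). Slco1a1, another uptake carrier, fell by 6.87 (adjusted p = 5.86e-04) and is named for its size. Its group means were 57.6 and 444 CPM in Het females and males, and 0.424 and 3.80 CPM in KO females and males. The basolateral exporter Abcc4 rose (1.40, adjusted p = 3.15e-04). Slc51b, a subunit of another basolateral exporter, rose by 2.46 (adjusted p = 3.30e-04). Its level was 0.0651 to 0.300 CPM in Het livers (2 to 9 counts) and 0.712 to 1.40 CPM in KO livers. The partner subunit Slc51a was too low to be tested, with group means of 0.0371 to 0.0657 CPM.

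**Figure D5:**
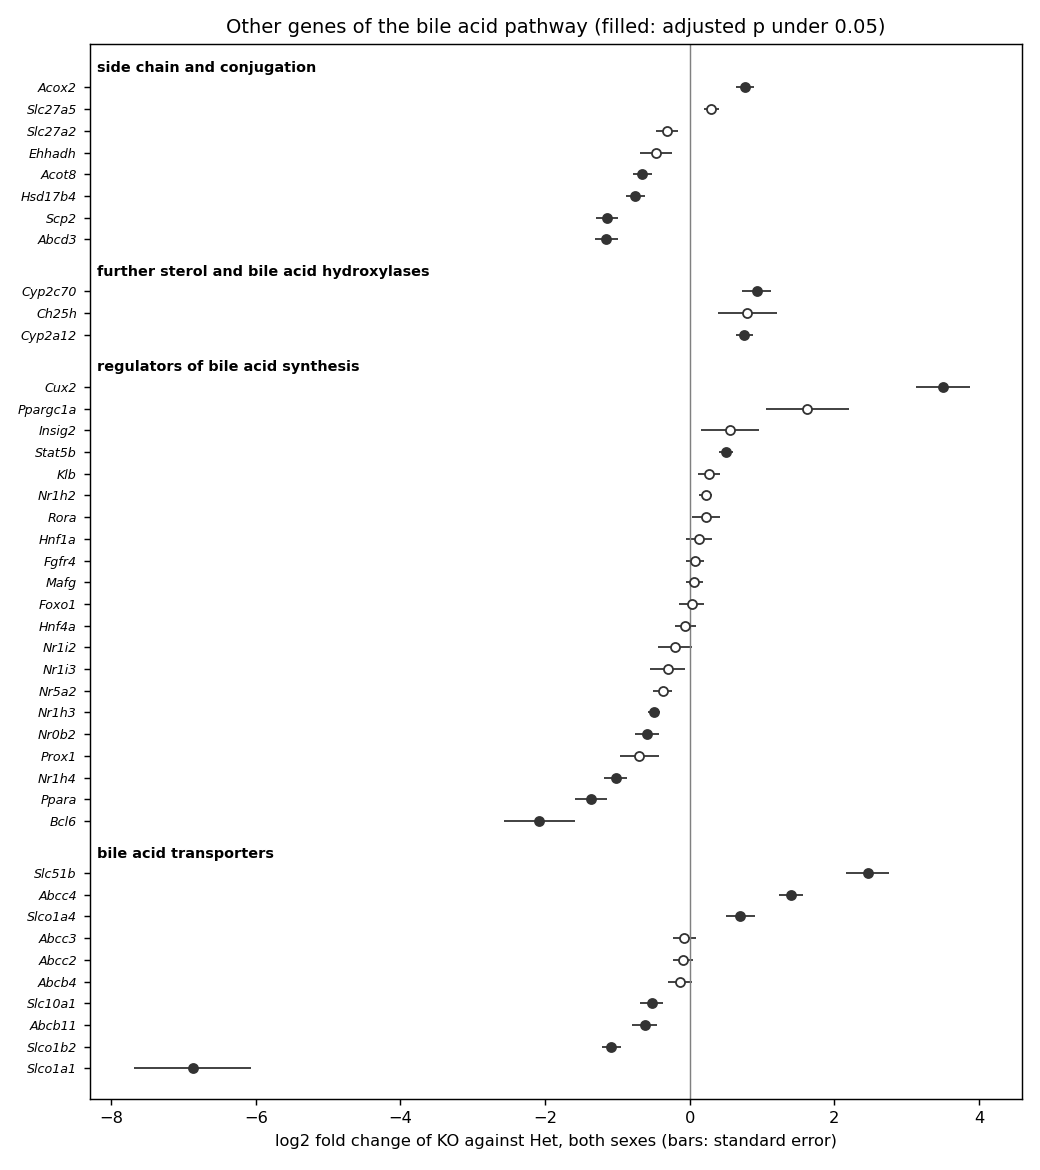
Log2 fold change of KO against Het over both sexes for the tested genes of 4 lists, with bars for the standard error and filled points for an adjusted p under 0.05. In the side chain list 4 genes are filled below 0 and 1 above, and among the regulators Cux2 at 3.50 lies farthest to the right.

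Of 14 clock and clock output genes, Nfil3 was called higher (1.24, adjusted p = 0.0175) and Hlf lower (-0.87, adjusted p = 0.00664), against 12.2% and 10.2% of all tested genes. Both were called in females (2.58, adjusted p = 0.00949, and -1.16, adjusted p = 0.0198) and neither in males (-0.11, adjusted p = 0.913, and -0.59, adjusted p = 0.187). With the clock index as a covariate, Cyp7b1 (-1.91), Cyp39a1 (1.86), Cyp46a1 (-2.28) and Hsd3b7 (-0.93) kept their calls over both sexes, and Amacr lost its call (-0.22, adjusted p = 0.102). Outside Het_F_115 and KO_M_118 every KO index lay above every Het index, so clock and genotype cannot be told apart in this fit. Some markers of liver cell types were called over both sexes, where 22.4% of all tested genes were called. Of 7 stellate cell and fibroblast markers 0 were higher and 2 lower (Lrat and Reln, the quiescent stellate markers), with a summed level of 193 to 343 CPM in Het and 59.4 to 179 CPM in KO livers. Of 6 sinusoidal endothelial markers 3 were lower (162 to 299 against 118.3 to 206 CPM), and of 6 macrophage markers 2 were higher (95.3 to 255 against 131 to 410 CPM). Of 6 hepatocyte markers Ahsg was higher and Ttr lower, of 6 cholangiocyte markers none was called (30.2 to 61.4 against 16.2 to 52.2 CPM), and of 6 T cell, B cell and neutrophil markers S100a8 was higher (1.27 to 4.03 against 2.81 to 4.78 CPM). No listed marker was at 0 in all 12 livers, and the part of these cells in the enzyme values was not tested.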

How the data were processed

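Total RNA from 12 mouse livers was depleted of ribosomal RNA and sequenced as stranded paired reads. Per the labels and the methods, the authors used STAR 2.7.9a for alignment to GRCm39 and Salmon 1.10.1 for quantification on GENCODE M34, and they deposited estimated counts per gene (3 tables) and TPM per gene. The plain estimated counts were used for all main results, rounded to whole numbers because 12.0% of values were not whole. TPM served only to compare genes within a group or liver, for ratios and for alternatives.

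Genes were tested when 3 or more livers had 5 or more reads once libraries were scaled to their median size. Counts were scaled by TMM and fitted with edgeR 4.0.16 (R 4.3.3, quasi-likelihood F test, robust, prior count 2) on 4 group means, which share one estimate of the spread. Contrasts were KO against Het over both sexes (mean of the sexes), within each sex, the difference of these (males minus females), and males against females. Standard errors come from the F statistic. The fit was run on simulated counts that held changes by genotype only, for KO against Het and the difference between the sexes. The other contrasts were not checked in this way. Adjusted p-values cover all 19350 tested genes. The members and lists were chosen with earlier results of these data known. Named genes were all 10 enzymes, Xpa, Ercc8, the 3 called genes of smallest p in each pathway list and the 3 genes nearest to Cyp7a1 and to Cyp8b1 in log2(CPM + 0.1). Slco1a1 was added afterwards for the size of its change. Of 7 hepatocyte markers listed, Tf was not analysed because no gene carried that symbol. Each mouse is 1 sample, so p-values measure the spread between mice. Alternatives were other count tables, filters, scalings, fits, DESeq2 1.42.0, limma 3.58.1 on log2(TPM + 1) and log2(TPM + 0.1), the clock index as covariate, a stricter threshold and leaving out each mouse. Positions, promoters and exon numbers come from GENCODE M39, a later release than the authors' on the same build. The Cyp7a1 promoter is not reported here.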

Additional observations from a re-analysis of the deposited data

Results flagged for a closer look

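Akr1d1 in KO_F_108 stood apart from the other 5 KO livers. Its level of 107 CPM lay below the 190 to 237 CPM of the others, and the gap to the nearest liver was 0.724 of the whole range on the log2 scale, beyond Dixon's critical value of 0.625 for 6 samples. KO_F_108 also had the lowest Cyp7b1 (13.1 CPM), Cyp8b1 (8.71 CPM), Hsd3b7 (95.0 CPM), Amacr (56.3 CPM) and Baat (105 CPM) and the highest Cyp39a1 (121 CPM) of the 12 livers. In all, 20 sets of 6 livers were looked at, and chance flags about 1 in 20.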

How the results depend on the processing

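The calls of Cyp7b1, Cyp39a1 and Cyp46a1 over both sexes and within males held under every alternative. Of 1950 recomputed values of single enzymes, 27 lost a call, 19 gained one, and no called value changed sign. Leaving out 1 mouse at a time gave 4 to 6 called enzymes over both sexes, 2 to 4 in females (2 without KO_F_108 and 2 without KO_F_112), 3 to 4 in males, 0 to 1 for the difference between the sexes (1, Hsd3b7, without KO_F_123), 2 to 3 for males against females over both genotypes, 2 in Het mice and 0 to 2 in KO mice (1 without Het_F_115, 2 without KO_F_123). An adjusted p under 0.01 left 3 enzymes over both sexes and 2 in females, fitting the females alone left 2, and DESeq2 called 2 in KO mice. The cause was not tested, except that fitting fewer livers leaves fewer samples for the spread. Leaving out 1 mouse moved the share of all genes called by over 1.5 times for the difference between the sexes (0.0208% to 0.468%), for males against females over both genotypes (0.589% to 1.77%), in Het mice (as low as 0.499%) and in KO mice (0.0312% to 1.48%). Cyp7b1 and Hsd3b7 were the calls lost in females. Amacr also lost its call over both sexes without a filter (0.0678), with 10 reads in every sample (0.0542), upper quartile scaling (0.0552), library size only (0.0517), the older quasi-likelihood method (0.0505) and no interaction (0.0530). With library size only, the median over all genes of the difference between the sexes was 0.16. Changes on log2(TPM + 1) understate weak genes, with -1.05 for Cyp46a1. The labels give each mouse its own number and no litter, so litter was not modelled and no paired analysis was made. Depth limits Cyp46a1, which had 10 to 31 counts per KO liver.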
